A study of Mus musculus with 3 samples.

Results

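Choroid plexus epithelial cells from the brains of tumour-bearing mice were examined in 3 droplet single-cell RNA-seq libraries. They made up 289 of 4269 cells kept, or 6.77%, out of 6947 barcodes in the files. The cells were chosen by their transcripts. A cell was taken when it had at least 200 detected genes, at most 20% mitochondrial UMIs (unique molecular identifiers, each counting 1 captured RNA molecule), at least 2% of its UMIs from Ttr, and a UMI of at least 2 of the 5 genes Folr1, Kl, Clic6, Enpp2 and Kcnj13. A barcode that also occurred in another library was dropped unless it had at least 5 times the UMIs of that copy.

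The choroid plexus is a folded sheet of ciliated epithelium in the brain ventricles that secretes most of the cerebrospinal fluid. Its cells pump sodium and bicarbonate across the apical membrane, carry hormones, vitamins and metals from blood to fluid, and release carrier proteins such as transthyretin, the product of Ttr. Tight junctions between the cells form the barrier between blood and cerebrospinal fluid, which is also a gate for leukocytes entering the brain.

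All animals were female wild-type C57BL/6 mice, 6 to 8 weeks old, that received syngeneic mouse brain tumour-initiating cells of the line BT0309 (from NPcis mice with mutations in Trp53 and Nf1, carrying luciferase and GFP) in the right striatum. Niacin (vitamin B3) was injected intraperitoneally every day at 100 mg/kg from day 7 in the niacin group, and vehicle mice received saline. Brains were taken 4 weeks after implantation, a 2 mm section around the injection site was cut, and live cells were sorted after a Percoll gradient. Each library was a pool, of 4 brains by the labels and 5 mice by the methods. There were 2 niacin libraries (replicates 1 and 2) and 1 vehicle library, labelled as the control with the number 2, so only the niacin group has replicates. The section was cut around a striatal tumour, and how much ventricle each pool held is not recorded in the labels.

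The libraries held 8301228 to 10359526 UMIs. In all, 924 distinct barcodes occurred in more than 1 library, and 1259 cells were dropped because a copy in another library was not at least 5-fold smaller. Among the barcodes dropped this way were 172 that met the choroid plexus rule, with 65 of them from vehicle, 30 from niacin 1 and 77 from niacin 2. Of the 289 cells kept, 108 had a barcode found elsewhere too, 6 in vehicle, 75 in niacin 1 and 27 in niacin 2.

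Choroid plexus cells numbered 35 of 1264 in the vehicle library, which is 2.77% (exact binomial 95% interval 1.94 to 3.83). Niacin 1 held 126 of 1411, or 8.93% (7.49 to 10.5), and niacin 2 held 128 of 1594, or 8.03% (6.74 to 9.47). The vehicle share was below both niacin shares, but with 1 vehicle pool the exact permutation test over libraries cannot be significant, and dissection and treatment cannot be told apart. With every shared barcode kept, the shares were 6.61%, 8.61% and 9.31%, and with every shared barcode dropped they were 2.66%, 5.17% and 7.21%. The size of the gap therefore depended on how shared barcodes were handled, while the vehicle share was the lowest under each of the 3 rules. Intervals of single libraries cover counting error only.

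The cells nearest the limits of the rule were as follows, as a description. The 3 cells with the lowest Ttr share inside had 2.66%, 3.32% and 3.64%, and the nearest cell outside with enough markers had 1.4%, followed by one at 0.022%. A single cell of 585 UMIs with 16.4% Ttr and 1 marker was left out for want of markers. All 5 markers were seen in 216 cells, 4 in 57, 3 in 12 and 2 in 4. The median Ttr share of the chosen cells was 13.1% in vehicle, 27.9% in niacin 1 and 23.4% in niacin 2, and the 99th percentile of all other cells was 0.212%.

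**Figure D1:**
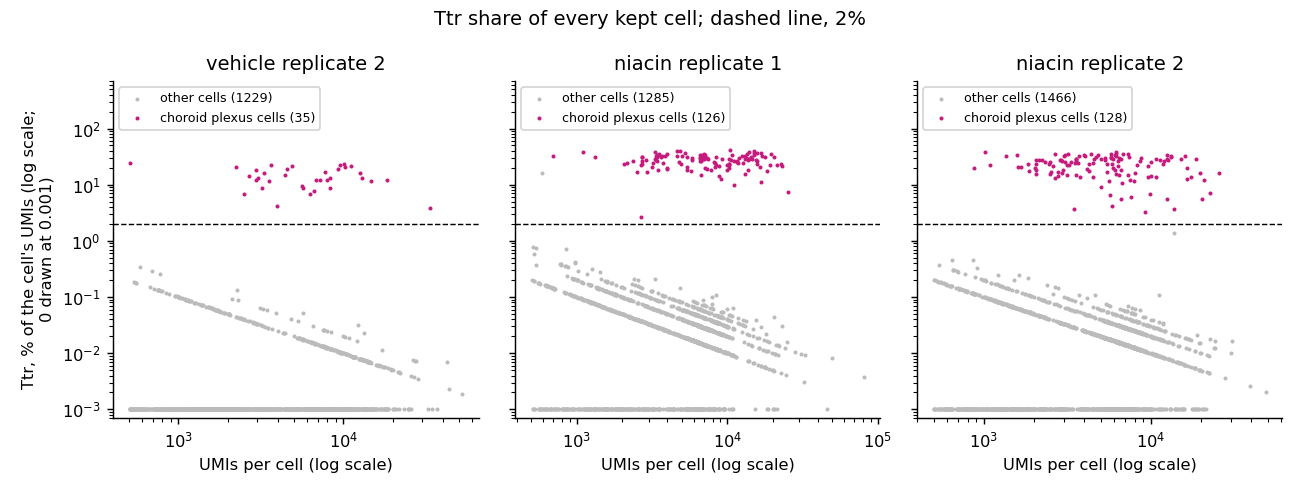
Ttr share of UMIs (percent, log scale) against total UMIs per cell (log scale) for every cell kept, 1 panel per library, with chosen choroid plexus cells in magenta and all other cells in grey. The chosen cells form a cloud above the dashed 2% line, with 35, 126 and 128 cells, and the parallel grey streaks are cells with a few Ttr UMIs each. Cells without a Ttr UMI are drawn along the bottom.

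The chosen cells were not shallow. Their median UMI count was 6326 in vehicle, 7252 in niacin 1 and 5489 in niacin 2, against 3171, 4881 and 5210.5 in the other cells of the same libraries. They carried more mitochondrial RNA, with medians of 10.5%, 9.13% and 8.96% of UMIs against 5.03%, 2.38% and 3.15% in other cells. In all, 9 chosen cells had under 1% mitochondrial UMIs, 2 of 35 in vehicle, 1 of 126 in niacin 1 and 6 of 128 in niacin 2.

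The 6 genes of the rule are given as levels without a test. Levels are given in CPM, the counts-per-million scale, for the summed cells of a library, from 3′ ends, so they compare a gene between libraries and not genes with each other. Ttr, which carries thyroid hormone and retinol-binding protein, stood at 132500 CPM in vehicle, 265600 in niacin 1 and 209400 in niacin 2. Enpp2, whose product autotaxin makes lysophosphatidic acid, went the other way with 26210, 18120 and 14090. As a share of each cell's UMIs its median was 2.55%, 1.64% and 1.34%. Kl, the co-receptor of FGF23 known as klotho, read 1580, 1147 and 910. Clic6, a chloride channel family member, read 1557, 551 and 546, so the vehicle value lay well above both niacin values. The folate receptor gene Folr1 was at 618, 1099 and 886, and the potassium channel gene Kcnj13 was at 500, 843 and 738. The vehicle library was thus the lowest for Ttr, Folr1 and Kcnj13 and the highest for Enpp2, Kl and Clic6.

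The label was checked with genes that the rule did not use. Of 31 further choroid plexus genes in a list, 30 had UMIs in the chosen cells, and Folr2 was at 0. All 30 were higher than in the other cells of the same libraries (edgeR on sums per library, library as a block, adjusted p under 0.05), with a median log2 difference of 9.44 in the list. Over all genes, 3495 of 12539 tested (27.9%) were higher in choroid plexus cells and 5030 (40.1%) were lower. Cells picked on 6 transcripts were bound to differ in the transcripts that accompany them, so these counts are read as a description.

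Leaving out the genes of the rule and of the immune and red cell lists, the 15 genes with the largest difference that averaged at least 100 CPM were Atp2b3, Abca4, Sulf1, Col8a1, Defb11, Sostdc1, Prelp, Slco1c1, A2m, Slc4a10, Mia, Igfbp2, Pcsk2, Kcne2 and Slc16a8. Their log2 differences ran from 10.77 to 12.49. Atp2b3, a plasma membrane calcium pump, read 156, 165 and 129 CPM in vehicle, niacin 1 and niacin 2 and had no UMI in the other cells. Igfbp2, a binding protein of insulin-like growth factors (mm10 chromosome 1, 72824503 to 72852474), read 1252, 1666 and 1444 CPM against 0.42 to 1.43 in microglia-like cells. Sostdc1, a secreted inhibitor of BMP and Wnt signals, read 515, 623 and 501. All 15 stood at 1.24 CPM or less in the other cells of every library. Microglia-like cells were those with at least 3 of 6 microglia markers and T cell-like cells those with at least 2 of 5 T cell markers.

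**Figure D2:**
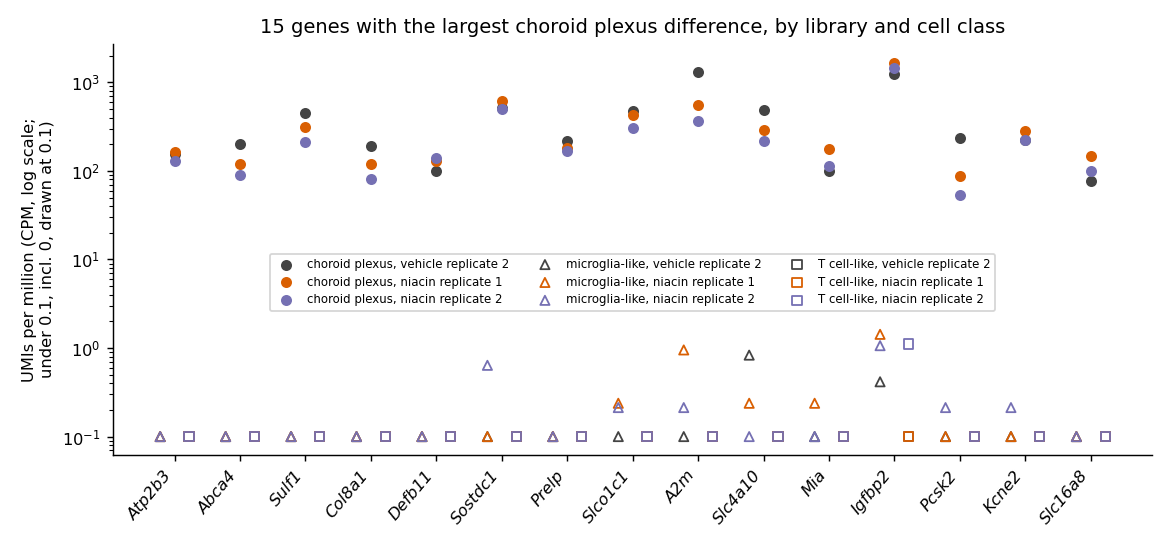
Level (CPM, log scale) of the 15 genes with the largest difference, with filled circles for choroid plexus cells, triangles for microglia-like and squares for T cell-like cells, coloured by library. Choroid plexus levels lie between 53 and 1666 CPM, and the other 2 classes lie at or below 1.43 CPM.

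To compare detection at equal depth, every cell was thinned to 1000 UMIs, which left out 1 choroid plexus cell in each library and 5, 3 and 2 of the T cell-like cells, the class that should lack these genes. Igfbp2 was then detected in 64.7% of vehicle cells (exact interval 46.5 to 80.3), 72.0% of niacin 1 cells (63.3 to 79.7) and 71.7% of niacin 2 cells (63.0 to 79.3). It was detected in 0 of 182, 0 of 129 and 0 of 142 T cell-like cells, with exact upper limits of 2.01%, 2.82% and 2.56%. The 3 choroid plexus intervals overlap. Without thinning, the shares were 91.4%, 98.4% and 94.5%, and median depths of T cell-like cells were 5616, 5356 and 6296 UMIs.

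Without the rule genes Ttr, Enpp2 and Kl, a list of proteins of the cerebrospinal fluid and the choroid secretome held 30 genes. Of these, 27 had UMIs. Of 27 tested, 21 were higher than in other cells (77.8%, against 27.9% of all genes) and 5 lower (18.5%, against 40.1%). Clu, the chaperone clusterin, read 2122, 2520 and 1961 CPM. The augurin gene 1500015O10Rik, also called Ecrg4, read 1428, 3134 and 2511, and Ptgds, the prostaglandin D synthase of cerebrospinal fluid, read 855, 1714 and 1526. The protease inhibitor gene A2m read 1317, 557 and 366. Apoe, the lipid carrier that microglia also make, read 1248, 3448 and 2947. Cp, the copper-binding ferroxidase ceruloplasmin, had no UMI in these cells, and Trf, transferrin, read 160, 259 and 336.

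Of 25 genes for ion and water transport outside the rule, 19 had UMIs. Of 20 tested, 17 were higher than in other cells (85.0%, against 27.9% of all genes) and 2 lower (10.0%, against 40.1%). The higher genes included the sodium pump subunit Atp1b1 (1004, 876 and 700 CPM), the cotransporter Slc12a2 (618, 315 and 249), the bicarbonate transporters Slc4a10 (485, 288 and 216) and Slc4a5 (191, 120 and 105), and carbonic anhydrase Car2 (779, 686 and 804). The water channel gene Aqp1 was present at 103, 72.9 and 70.9 CPM. Car4, Kcna1, Kcna3, Kcnq1, Clcn2 and Cftr had no UMI in 2218564 UMIs of choroid plexus cells.

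Carriers of nutrients and hormones were mixed. Of 31 genes outside the rule, 30 had UMIs. Of 29 tested, 18 were higher than in other cells (62.1%, against 27.9% of all genes) and 7 lower (24.1%, against 40.1%). Among them were the thyroid hormone transporter Slco1c1 (470, 432 and 304 CPM) and the siderophore receptor gene Slc22a17 (1076, 1035 and 787). Steap1, a metalloreductase, read 103, 170 and 188. The endocytic receptor gene Lrp2 was at 0.

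All 20 junction and epithelial genes had UMIs, though some had few. Cdh1 had 0, 1 and 1 UMIs in vehicle, niacin 1 and niacin 2, and Marveld2 had 1, 3 and 1. Of the 20, 13 were higher than in other cells (65.0%, against 27.9% of all genes). Another 4 were lower, where 40.1% of all genes were. These were F11r, Tjp1, Cdh1 and Cd24a, with log2 differences of -2.5, -1.2, -2.6 and -3.1. Cldn2, a claudin of leaky epithelia, read 99.2, 85.5 and 81.6 CPM, and the keratins Krt18 and Krt8 read 229, 277 and 376 and 160, 117 and 92.2. Of 15 genes of motile cilia, 12 had UMIs, and 11 of 12 tested were higher than in other cells (91.7%, against 27.9% of all genes). Rsph1 read 149, 186 and 260 CPM and Foxj1, the master factor of motile cilia, read 99.2, 45.0 and 62.6. Tmem212, Ccdc153 and Mcidas, which mark ependymal or multiciliating cells, were at 0.

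Among 20 transcription factors of patterning, 12 had a UMI. Otx2 (chromosome 14, 48657677 to 48673819) read 485, 261 and 294 CPM, Msx1 read 351, 213 and 226, Sox9 read 305, 120 and 135, and Zic1 read 91.6, 48.6 and 47.3. Hoxa2, Hoxb2, Hoxb3, Hoxd3 and Meis1 were at 0, and Hoxb4 had 1.8 CPM in niacin 1 and none elsewhere. Hox RNA is known from hindbrain choroid plexus in development. At 2218564 UMIs in all, a gene at 0 allows up to 3 UMIs, so a low level would not be seen.

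Of 16 receptor genes, 15 had UMIs, and 8 of 15 tested were higher than in other cells (53.3%, against 27.9% of all genes) and 5 lower (33.3%, against 40.1%). The prolactin receptor gene Prlr read 870, 1002 and 688 CPM and the serotonin receptor gene Htr2c read 324, 204 and 169. The niacin receptor gene Hcar2 was at 0 CPM in vehicle and niacin 1 and at 2.4 in niacin 2, which is near the level of no counts. Of 23 genes of niacin and NAD metabolism 19 had UMIs, with Nampt at 80.2, 29.7 and 20.1.

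Of 20 genes for leukocyte traffic, 15 had UMIs, and of 14 tested 4 were higher than in other cells (28.6%, against 27.9% of all genes) and 9 lower (64.3%, against 40.1%). The 4 were Vcam1, Mif, Cx3cl1 and Tgfb2. Vcam1, the adhesion molecule that binds integrins of leukocytes, read 229, 219 and 223 CPM, and Mif read 614, 664 and 933. The chemokine genes Cxcl12, Cxcl1, Ccl28 and Ccl20 were at 0 and Ccl2 was at 3.8 CPM or less. Of 22 immediate early and heat shock genes, 17 were lower than in other cells (77.3%, against 40.1% of all genes) and 3 higher (13.6%, against 27.9%).

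Leaving out the same genes, the 10 lowest in choroid plexus cells that averaged at least 100 CPM in the other cells are named here. Camp, Ngp, Ltf and Pglyrp1 encode neutrophil granule proteins, Ighg2c and Igha encode immunoglobulin chains, and Ccr2, Ccl2, Cxcl10 and Specc1 were the others. Their log2 differences ran from -7.31 to -6.41.

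Markers of other cell types were examined as whole lists. The summed levels in vehicle, niacin 1 and niacin 2 were 19.1, 4.5 and 5.9 CPM for 8 endothelial genes (Cldn5, Cdh5, Emcn and Tie1 at 0), 107, 77.4 and 53.2 for 8 stromal genes (Col1a1, Col3a1, Dcn and Lum at 0), and 11.4, 2.7 and 1.2 for 8 neuronal genes (Rbfox3, Stmn2, Slc17a7 and Tubb3 at 0). The sum of 8 mural genes was 34.4, 58.5 and 56.7 (Rgs5, Kcnj8, Abcc9, Tagln and Myh11 at 0) and that of 8 astrocyte genes was 114, 54.0 and 82.7 (Gja1 and Agt at 0). The sum of 8 oligodendrocyte genes was 95.4, 30.6 and 30.7 (Mog and Cldn11 at 0), and that of 12 ependymal genes was 622, 698 and 855 (Tmem212, Ccdc153, S100b and Dnah12 at 0). Of the 9 ependymal genes tested, 7 were higher than in other cells (77.8%, against 27.9% of all genes) and 1 lower (11.1%, against 40.1%). Those higher included Mia, Foxj1 and Rsph1. The stromal genes Col1a2 and Pdgfra (log2 differences of 11.25 and 8.62), the mural gene Vtn (10.77) and the astrocyte genes Aldh1l1 (5.46) and Aldoc (3.92) were also higher. Some immune RNA was present. At least 2 of 8 immune genes were seen in 41 of the 289 cells. These were 7 of 35 cells in vehicle, 11 of 126 in niacin 1 and 23 of 128 in niacin 2. All 12 genes of a wider immune list had UMIs.

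Niacin and vehicle were compared in the summed choroid plexus cells of each library. The fit has 1 residual degree of freedom, and the lone vehicle library is assumed to vary like the niacin libraries, so p-values measure the spread between 2 pools. Of 7669 genes tested, 365 were higher in niacin libraries (4.76%) and 314 lower (4.09%), with 1844 at an unadjusted p under 0.05. Of these, 3 higher and 1 lower genes belong to the rule. The vehicle cell with the most UMIs, described below, carried much of the immune RNA. Without that cell, 65 genes were higher and 53 lower. Apart from genes of the rule, 29 higher and 25 lower genes were called in the same direction under 7 of the 9 alternatives, that is, all but DESeq2 and the exclusion of every shared barcode. Under all 9, these were 19 higher and 6 lower.

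The most abundant genes higher in niacin cells under these 7 settings included the ubiquitin gene Ubb, the lipid carrier gene Apoe and subunits of oxidative phosphorylation. Ubb read 897, 2593 and 3437 CPM in vehicle, niacin 1 and niacin 2, a log2 change of 2.09 ± 0.31 (SE, adjusted p = 5.71e-09, and 0.00224 without the 1 cell). In T cell-like cells Ubb also read 739, 1827 and 1808. Apoe (chromosome 7, 19696109 to 19699188) rose by 1.71 ± 0.30 on the log2 scale (adjusted p = 2.46e-06, and 0.0185 without the cell). Apoe read 1795, 1798 and 2080 CPM in microglia-like cells. T cell-like cells had 57.0, 30.2 and 16.6 CPM of Apoe. Csrp2, a LIM domain protein gene, read 64.9, 198 and 264 CPM, and Id3, an inhibitor of bHLH factors, read 111, 247 and 342. Both were called with and without the cell, with log2 changes of 2.17 ± 0.41 and 1.74 ± 0.37.

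**Figure D3:**
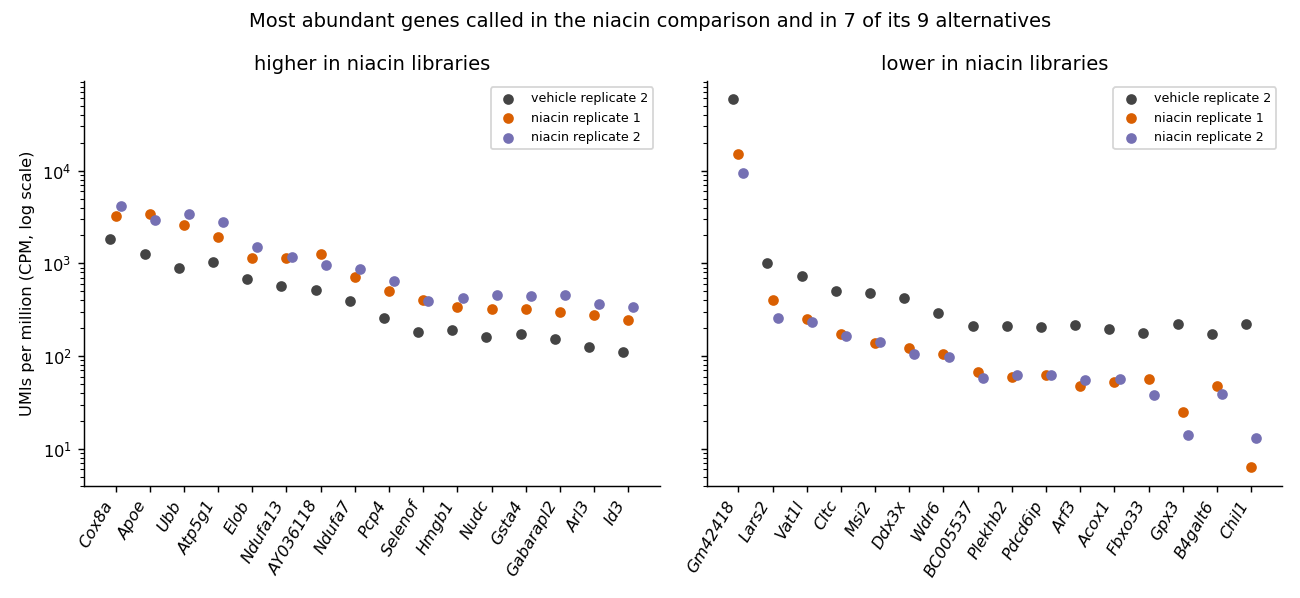
Level (CPM, log scale) of the most abundant genes called in the niacin comparison and in 7 of its 9 alternatives, with 1 point per library. In the left panel both niacin libraries lie above vehicle, from Cox8a (1832, 3271 and 4179) to Id3 (111, 247 and 342), and in the right panel both lie below it, from Gm42418 (58610, 15030 and 9483) to Chil1 (221, 6.3 and 13.0).

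Nuclear genes of oxidative phosphorylation were all tested, 32 of 32. In niacin, 18 were called higher (56.2%, against 4.76% of all genes), none lower and 14 neither. Their median log2 change was 0.88 against 0.03 over all genes tested. Cox8a, a subunit of cytochrome c oxidase (chromosome 19, 7215153 to 7217616), read 1832, 3271 and 4179 CPM, a log2 change of 1.37 ± 0.30 (adjusted p = 0.000358). Atp5g1, of the ATP synthase ring, read 1046, 1906 and 2799 (log2 1.51 ± 0.30, adjusted p = 4.69e-05). Without the 1 vehicle cell 4 of 32 were called, Cox8a, Atp5g1, Ndufa13 and Sdhb, and the median was 0.72. With cells of at least 2 immune genes removed, that vehicle cell among them, the median was 0.83. In T cell-like cells Cox8a read 436, 599 and 592 CPM and Atp5g1 read 79.9, 232 and 251. Of 13 mitochondrially encoded genes, 1 was called higher (7.69%), mt-Nd6 (103, 258 and 222 CPM), and the median log2 change was 0.14. In the chosen cells all 32 nuclear genes and all 13 mitochondrial genes were higher than in other cells, against 27.9% of all genes.

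**Figure D4:**
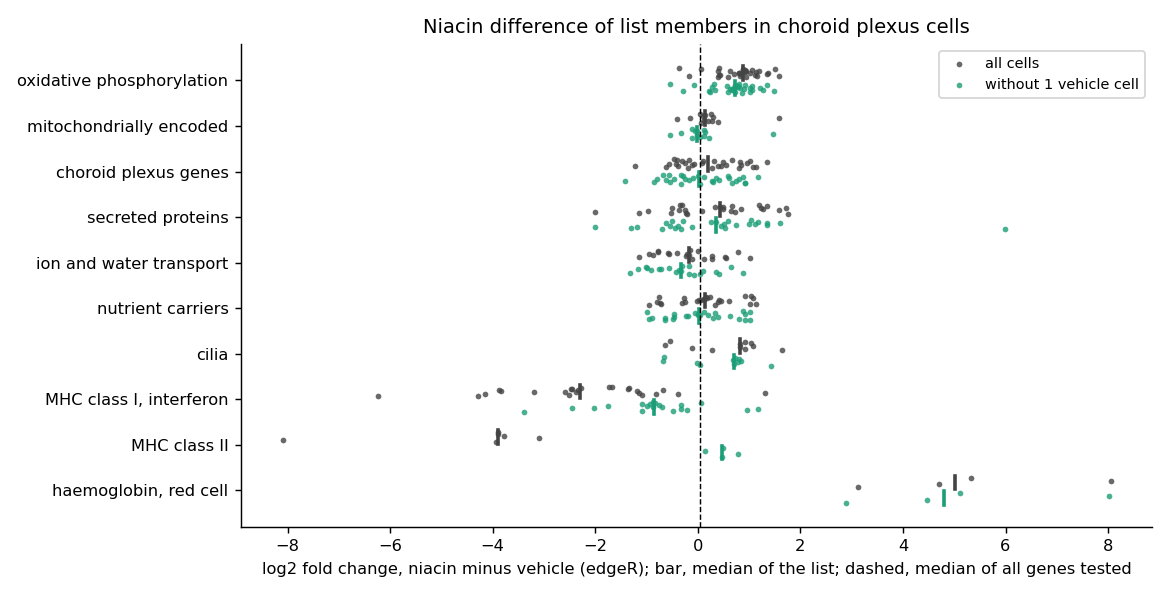
Log2 change, niacin minus vehicle, of the genes of 10 lists in choroid plexus cells, in dark grey with all cells and in green without 1 vehicle cell, with a bar at each median and a dashed line at the median of all genes tested. Oxidative phosphorylation lies to the right under both, with medians of 0.88 and 0.72, and MHC class II moves from -3.90 to 0.48 when the cell is left out.

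Of the 30 tested in the list of further choroid plexus genes, 5 were called higher (16.7%, against 4.76% of all genes), 1 lower (3.33%, against 4.09%) and 24 neither, and the median log2 change was 0.19. The 5 were 1500015O10Rik (log2 1.34 ± 0.30, adjusted p = 0.000441), 2900040C04Rik, Calml4, Rdh5 and Steap1, and none of them was called without the 1 vehicle cell (1500015O10Rik then had an adjusted p of 0.0577). Ptgds rose by 1.28 ± 0.29 with all cells (adjusted p = 0.00094) and had an adjusted p of 0.0577 without the cell. Without the cell, 1500015O10Rik and Ptgds changed by 1.17 and 1.11 on the log2 scale. With cells of at least 2 immune genes removed, that cell among them, they changed by 1.29 and 1.15. In that setting 2900040C04Rik, Calml4, Rdh5 and Steap1 changed by 0.90, 1.02, 0.60 and 0.92. The 1 lower gene of the list was Vat1l. Vat1l, a vesicle membrane protein gene, read 729, 253 and 234 CPM (log2 -1.23 ± 0.28, adjusted p = 0.000771, and 0.0137 without the cell). A2m fell by 1.14 ± 0.27 (adjusted p = 0.00116, and 0.0372 without the cell) and the prohormone convertase gene Pcsk2, at 237, 86.4 and 53.2 CPM, fell by 1.38 ± 0.33 (0.00171 and 0.0372). Pcsk2 came to 0.02 with at most 10% mitochondrial UMIs, a setting that keeps 15 vehicle cells, and was then not called. A single vehicle cell held 53.2% of the vehicle Pcsk2 UMIs, and a single one held 47.5% of the A2m UMIs. Sod1, cytosolic superoxide dismutase, fell by 1.05 ± 0.28 (adjusted p = 0.00693, and 0.0479 without the cell), with 607, 249 and 208 CPM, and in T cell-like cells it read 217, 93.6 and 94.3.

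Counts in the lists of transport, receptor and junction genes are given without genes of the rule, beside 4.76% higher and 4.09% lower of all genes. Of 19 ion and water genes 0 were called by edgeR and 0 by DESeq2 (which gave no adjusted p for 6), with 4 at an unadjusted p under 0.05 by edgeR. With cells of at least 2 immune genes removed, edgeR called 1 of 18 lower (5.56%, against 165 of 6815 genes). It was Slc12a2, with a log2 change of -0.93, and of -0.77 with all cells. Of 25 nutrient carriers 1 was called higher, Steap1 (4.0%). Of 14 receptor genes 0 were called by edgeR or DESeq2 (no adjusted p for 12), and 0 had an unadjusted p under 0.05 by either. Prlr had a log2 change of 0.32 ± 0.28 (edgeR adjusted p = 0.505) and Htr2c one of -0.44 ± 0.31 (0.40). Motile cilia had 1 call of 11, Pifo. Of 14 junction genes only Cd9, a tetraspanin gene, was called (7.14%), at 313, 557 and 495 CPM (log2 1.11 ± 0.31, adjusted p = 0.010, and 0.066 without the cell). Sox9 was the only one of 7 patterning factors called, with a log2 change of -0.92 ± 0.31 (adjusted p = 0.0429, and 0.0577 without the cell). Vcam1 gave 0.30 ± 0.33 and was not called.

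The vehicle library also differed in RNA that is not particular to the epithelium. Gm42418, a locus that overlaps ribosomal RNA and collects its reads, stood at 58610, 15030 and 9483 CPM in choroid plexus cells and fell by 1.89 ± 0.29 on the log2 scale (adjusted p = 2.58e-08, and 0.0148 without the cell). T cell-like cells had 39270, 7512 and 6280 CPM of it, and microglia-like cells 17620, 5586 and 7443. Genes higher in niacin had a median transcript length of 747 bases and those lower had one of 1773 bases, against 1195 over all genes tested. Haemoglobin RNA was higher in niacin cells, Hbb-bs reading 7.6, 294 and 193 CPM (log2 5.33 ± 0.63, adjusted p = 8.86e-15, and 0.000756 without the cell). It read 9.2, 421 and 213 CPM in T cell-like cells. The 6 red cell genes summed to 22.9, 556 and 332 CPM in choroid plexus cells, with UMIs of all 6. The part of these library-wide differences in the niacin calls was not tested.

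RNA of MHC class II and of interferon response was lower in niacin libraries with all cells, and most of the vehicle class II RNA lay in a single cell. All 6 class II genes were called lower, with a median log2 change of -3.90. Of 24 tested class I and interferon genes, 19 were lower (79.2%, against 4.09% of all genes) and 1 higher (4.17%, against 4.76%). H2-Ab1 read 885, 75.6 and 10.6 CPM, Cd74 read 1225, 193 and 16.6, and Irf8, a factor of myeloid cells, read 431, 18.0 and 27.2. The vehicle cell with the most UMIs, 33767, held 832 of the 879 class II UMIs of that library (94.7%). It had 3.84% Ttr, 18 Ptprc UMIs and 106 of Irf8, and it also held 93.8% of the Irf8 UMIs of its library. In niacin 1 a cell of 25227 UMIs with 36 Ptprc UMIs held 388 of 409 class II UMIs, and in niacin 2 the top cell held 8 of 39.

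**Figure D5:**
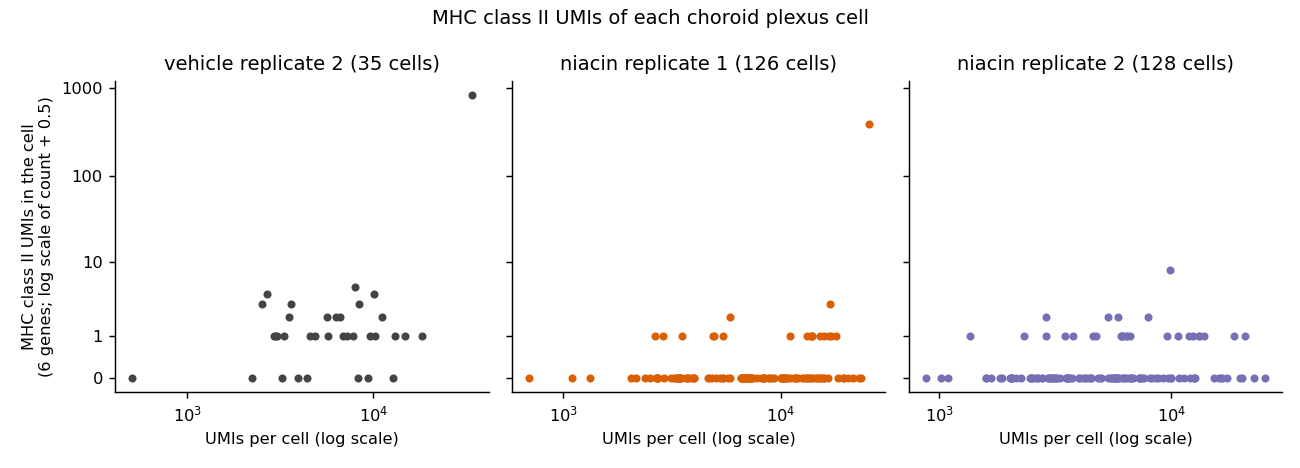
MHC class II UMIs of each choroid plexus cell (6 genes, log scale of the count + 0.5) against its total UMIs (log scale), by library. A single vehicle cell with 832 class II UMIs and a single niacin 1 cell with 388 stand above all others, which hold 8 or fewer.

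Leaving out the vehicle cell alone keeps the niacin 1 cell, which also held most class II UMIs of its library but had 0 Irf8 UMIs. Then 0 of the 4 class II genes still tested were called, 0 had an unadjusted p under 0.05 (edgeR), and their log2 changes were 0.14 for H2-Ab1, 0.48 for H2-Aa, 0.78 for H2-Eb1 and 0.47 for Cd74. Of 20 class I and interferon genes 0 were called and 7 had an unadjusted p under 0.05 (edgeR). B2m, the light chain of class I, had a log2 change of -1.67 ± 0.28 with all cells (adjusted p = 2.87e-07) and -0.88 without the cell (0.0969). Removing from all libraries the 41 cells that held at least 2 of 8 immune genes takes out both of these cells. With them removed, both class II genes still tested were lower, H2-Ab1 by -3.35 (adjusted p = 0.00351) and Cd74 by -2.90 (0.000507), and B2m had a log2 change of -1.48 (0.000386). Of 19 class I and interferon genes, 5 were then lower (26.3%) and 1 higher (5.26%). Of all 6815 genes tested in that setting, 165 were lower and 294 higher. The calls thus depended on which cells were left out. Leaving out the cell richest in class II in each library, class II summed to 206 CPM in vehicle, 19.4 in niacin 1 and 37.1 in niacin 2, and was seen in 26 of 34, 18 of 125 and 27 of 127 cells. Microglia-like cells of the same libraries had 5404, 1096 and 1251 CPM of class II. T cell-like cells had 478, 492 and 318 CPM. Whether free RNA from other cells accounts for these values was not tested. The interferon-induced gene Ifi27 went the other way, with 691, 982 and 1733 CPM (log2 1.30 ± 0.30, adjusted p = 0.000796, and 0.0638 without the cell).

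Complement component gene C3, lipocalin gene Lcn2 and glutathione peroxidase gene Gpx3, all induced in inflamed or injured tissue, were called lower in niacin with and without that cell, though not under every alternative. Lcn2 read 103, 5.4 and 7.1 CPM (log2 -3.68 ± 0.53, adjusted p = 1.61e-09, and 0.000602 without the cell), Gpx3 read 221, 25.2 and 14.2, and C3 read 99.2, 3.6 and 0. The glycoprotein gene Chil1 had 58, 7 and 11 UMIs, and these 4 genes were grouped after their values were seen. In vehicle, 3 of the 35 cells held at least 3 of the 4 genes. Those cells had 119 of the 169 vehicle UMIs of the 4 genes (70.4%), a share partly built in because the same genes picked them. They had 2518 to 3546 UMIs in all, 6.83% to 15.9% Ttr and none of the 8 immune genes. At least 3 of the 4 genes were also seen in 1 cell of niacin 1 and in no cell of niacin 2. Gpx3 was seen in 6 of 35 vehicle cells (17.1%), 18 of 126 niacin 1 cells (14.3%) and 5 of 128 niacin 2 cells (3.91%). Most of the pooled vehicle UMIs of the 4 genes thus lay in 3 cells.

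RNA of the microglial gene C1qa was also held by few cells. C1qa read 19.1, 163 and 191 CPM (log2 3.54 ± 0.53, adjusted p = 7.65e-09) and the 2 richest cells held 148 of 181 C1qa UMIs in niacin 1 and 102 of 162 in niacin 2. With cells of at least 2 immune genes removed its log2 change was 0.43 (adjusted p = 0.767). S100a9, a neutrophil gene, read 22.9, 87.4 and 223 CPM, and 1 cell of niacin 2 held 73.0% of its UMIs there. S100a9 was seen in 17.1%, 48.4% and 31.2% of the cells, and the top cell of niacin 1 held 4.12% of its UMIs. Its log2 change was 3.06 with all cells and 2.56 with cells of at least 2 immune genes removed.

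The niacin difference of choroid plexus cells was set against that of microglia-like cells in 1 fit with library as a block. Of 11734 genes, 27 had a more positive difference in choroid plexus cells (0.23%) and 45 a more negative one (0.384%). Without the 1 vehicle cell these were 10 and 6. Apoe differed by 1.55 ± 0.27 (log2, adjusted p = 0.00242, and 0.0266 without the cell). Vcam1 differed by 2.65 ± 0.40 (adjusted p = 0.000493, and 0.00616 without the cell). Its choroid plexus levels were 229, 219 and 223 CPM, and in microglia-like cells it read 51.5, 6.4 and 13.2, so the difference lay in the microglia-like levels. Lcn2 differed by -4.74 ± 0.65 (adjusted p = 0.000104, and 0.000866 without the cell). It read 103, 5.4 and 7.1 CPM in choroid plexus cells, and the 27 vehicle UMIs lay in 4 cells. In microglia-like cells it read 19.1, 11.7 and 72.9, so niacin 2 alone was above vehicle there. Cox8a and Atp5g1 differed by 1.22 ± 0.26 and 1.22 ± 0.28 with all cells. Without the cell they differed by 1.06 and 1.07 and were not called. With cells of at least 2 immune genes removed, that cell among them, they differed by 1.22 and 1.31.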

How the data were processed

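The deposited files hold raw UMI counts per gene and barcode, made by the authors with Cell Ranger 3.1 and STAR on mm10, per the labels and the submitters' processing notes. The fits below used these counts as deposited, without rescaling. Barcodes were filtered and choroid plexus cells chosen as stated above, with no doublet caller. The cells and all gene lists were chosen with earlier results of these data known. Sums of the counts over each class of cells in a library entered edgeR 4.0.16 in R 4.3.3 (TMM scaling, filterByExpr, quasi-likelihood F-test), with Benjamini-Hochberg adjustment over all genes tested and a threshold of 0.05. Library was a block in the comparison with other cells and in the comparison with microglia-like cells. DESeq2 1.42.0, RLE size factors, no filter, and other limits on shared barcodes, mitochondrial UMIs, Ttr, depth and immune genes were alternatives, as was a total without mitochondrial and Ttr UMIs for levels. The exclusion of 1 vehicle cell was chosen after seeing the data. Named genes were the 6 of the rule, the 15 highest and 10 lowest against other cells and the 10 highest and 10 lowest niacin calls (mean of at least 100 CPM), and per list the 4 most abundant members and those passing the niacin test. Not every gene so named is printed. The scripts were tested on simulated data with 200 genes changed 4-fold. The niacin fit recovered 34% of these, with 6.85% of its 73 calls false, and the fit against microglia-like cells recovered 4.5%. The simulated sums had a fixed dispersion of 0.05, with no difference shared by a whole library and no single cell rich in a gene. The data held both, so these rates need not apply to the calls above. Positions are from the GENCODE annotation of mm10. A few listed genes are not reported here.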

Additional observations from a re-analysis of the deposited data

Results flagged for a closer look

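The niacin difference in choroid plexus cells minus that in microglia-like cells passed its own test (edgeR, adjusted p under 0.05) for these named genes, on the log2 scale. More positive in choroid plexus cells were C1qa (2.99), C1qb (2.65), Cx3cr1 (2.31), Csf1r (2.96), Apoe (1.55), Mdk (3.24), Mif (1.47), Vcam1 (2.65), Cox8a (1.22), Cox4i1 (1.12), Atp5g1 (1.22), Fth1 (1.09) and Prdx5 (1.42). More negative were Plac8 (-2.46), Irf8 (-3.58), Psmb8 (-2.43), H2-DMa (-3.61) and Lcn2 (-4.74). Without 1 vehicle cell, C1qa, C1qb, Apoe, Vcam1 and Lcn2 were still called. For Lcn2, the vehicle choroid plexus cells held 27 UMIs, in 4 cells. With cells of at least 2 immune genes removed, C1qa was at -0.09 and C1qb at 0.74, and neither was called, while Apoe was at 1.54.

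Barcodes outside the comparisons also met the choroid plexus rule, 172 of them among those dropped as copies of a shared barcode and 26 among those over the mitochondrial limit. Of the 26, 13 were from vehicle, 7 from niacin 1 and 6 from niacin 2. With no mitochondrial limit, choroid plexus cells numbered 48 of 1900 in vehicle, 133 of 1594 in niacin 1 and 134 of 1746 in niacin 2. The limit thus removed more of the vehicle cells, and its part in the niacin comparisons was not tested.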

How the results depend on the processing

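The number of choroid plexus cells was 181 with all shared barcodes dropped, 461 with all kept and 163 with at most 10% mitochondrial UMIs. Genes higher in niacin numbered 85 with RLE size factors, 115 with DESeq2 (which gave no adjusted p for 6244 genes), 147 with shared barcodes dropped, 146 with at most 10% mitochondrial UMIs and 65 without 1 vehicle cell. Genes lower numbered, in the same order, 146, 21, 115, 197 and 53, and 165 with immune-positive cells removed and 196 with Ttr at least 5%. Genes whose niacin difference differed from microglia-like cells numbered 111 (RLE), 210 (DESeq2), 116 (no filter), 7 (shared barcodes dropped), 40 (immune-positive cells removed), 40 (at most 10% mitochondrial UMIs), 15 (Ttr at least 5%) and 16 (without the cell). Counts against other cells stayed within 1.5 times under the alternatives run, also without the replicate block (3150 higher and 4234 lower), and leaving out 1 library gave 2482 to 3759 higher and 3411 to 4616 lower.

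Log2 niacin changes turned sign for Pcsk2 (0.021, at most 10% mitochondrial UMIs). With Ttr at least 5% and without the cell, they turned for H2-Ab1 (0.12 and 0.14), H2-Aa (0.46 and 0.48), H2-Eb1 (0.78 and 0.78), Cd74 (0.46 and 0.47), H2-D1 (0.11 and 0.057) and Cd52 (1.67 and 1.66). Cd52 was 1.11 with shared barcodes dropped and 0.039 with immune-positive cells removed, where Lyz2 (-0.43), Fcer1g (-0.80) and Jun (-0.94) also turned. The cause was not tested. With mitochondrial and Ttr UMIs left out of the total, levels rose by a factor of 1.32 in vehicle, 1.56 in niacin 1 and 1.41 in niacin 2. Of 148 named genes compared, vehicle kept its place above, between or below the niacin libraries for 138 and changed it for 10, among them Sostdc1, Slco1c1, Atp1b1, Car2, Slc22a17 and Vcam1. No paired analysis was possible for niacin because the groups share 1 replicate number, and leaving out a niacin library leaves no residual degrees of freedom. With 35 vehicle cells in 1 pool, low genes and small changes were not detectable.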
